A study of Setaria viridis with 26 samples.

Results

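*SvSid1* (Sevir.2G093800) and *SvIds1* (Sevir.9G034800) are AP2-like genes of *Setaria viridis*, a panicoid grass with branched panicles. They were found in the wild-type co-expression network by their locus identifiers and are 2 of its 25298 genes. The identifiers place *SvSid1* on chromosome 2 and *SvIds1* on chromosome 9. Both were annotated with the AP2 DNA-binding domain, and both were members of the magenta module, one of 26 groups of co-expressed genes named by colour.

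AP2-like transcription factors of this kind carry a pair of AP2 domains, and their transcripts are known targets of the microRNA miR172. In maize, *indeterminate spikelet1* and *sister of indeterminate spikelet1* limit the number of florets that a spikelet meristem makes, and they act partly redundantly in giving axillary meristems of the inflorescence their fate. Their *Arabidopsis* relatives *AP2* and *TOE1* act in floral organ identity and in the timing of flowering.

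The series compared *ful2* mutants, which carry a lesion in the AP1/FUL-like MADS-box gene *SvFul2* and are also named *brl1*, with wild type, both in the A10.1 background. RNA was profiled from *ful2* inflorescence primordia at 9 to 10, 15, and 21 days after sowing (DAS) and from wild-type primordia at 8 to 9, 10 to 11, and 17 DAS. Each genotype and stage had 4 samples, each a pool of hand-dissected primordia, and 2 further *ful2* samples were seedling DNA. The network was built from wild-type primordia only, with samples of an earlier study added, so no *ful2* sample entered any value below. Expression levels were not used here, which means that neither *SvFul2* in the mutant nor markers of the tissue could be checked by their level, and sequencing depth was not used.

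An edge in the network joins a pair of genes, called partners here, and its weight is their topological overlap, a score from 0 to 1 that is high where the expression of 2 genes followed the same course over the wild-type samples and was shared with the same further genes. Only pairs of at least about 0.02 were listed, so an unlisted pair is not known to be 0. Each weight is 1 value over all samples and has no replicate error. No test of a difference between weights was therefore possible, and the comparisons below are descriptions.

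*SvSid1* had 3501 edges, 13.8% of the 25297 it could have, and *SvIds1* had 2434 edges, or 9.62%. The median gene of the network had 3069. The weights of *SvSid1* lay between 0.0200 and 0.197, with a median of 0.0363 and quartiles of 0.0267 and 0.0536. Those of *SvIds1* lay between 0.0200 and 0.102, with a median of 0.0347 and quartiles of 0.0260 and 0.0492. The bulk of both lists was thus weak and alike, and the lists differed mainly at their heavy end. The median weight over all edges of the network was 0.0412.

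The edge between the 2 genes weighed 0.0549. It was heavier than 76.3% of the edges of *SvSid1*, where it ranked 829 of 3501, and heavier than 82.4% of the edges of *SvIds1*, where it ranked 429 of 2434. It was above 63.6% of all edges between magenta genes. The pair was therefore linked, but 828 genes were linked more heavily to *SvSid1*, and 428 to *SvIds1*, than they were to each other.

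The place of the genes in their shared module differed. *SvSid1* had edges to 1142 magenta genes, 90.7% of the module, with a summed weight of 72.7, and *SvIds1* to 555, or 44.1%, with a summed weight of 24.6. Magenta held 46.3% of the summed weight of all edges of *SvSid1* and 25.7% of that of *SvIds1*. Beside them, the MADS-box genes *SvMads51* and *SvFul4*, both of magenta, had 1191 and 1130 magenta edges that summed to 78.3 and 77.8. *SvSid1* was close to these values and *SvIds1* was far below them. By summed weight within magenta, *SvSid1* ranked 140 and *SvIds1* ranked 831 of the 1260 magenta genes. By summed weight over all modules, magenta included, *SvSid1* ranked 458 and *SvIds1* ranked 694.

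For *SvIds1*, the heaviest module was not its own. Its mean weight per module gene, with unlisted pairs counted as 0, was 0.0248 to pink and 0.0195 to magenta, and its 763 pink edges summed to 32.5. For *SvSid1* the mean was 0.0179 to pink and 0.0577 to magenta. A mean weight higher to pink than to magenta was found in 291 of the 1260 magenta genes, or 23.1%. By the excess of pink over magenta, *SvSid1* ranked 1245 and *SvIds1* ranked 189 of the 1260. Such a gene was not rare: over all 25298 genes, 67.4% had their highest mean weight to the module that they were labelled with.

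**Figure D1:**
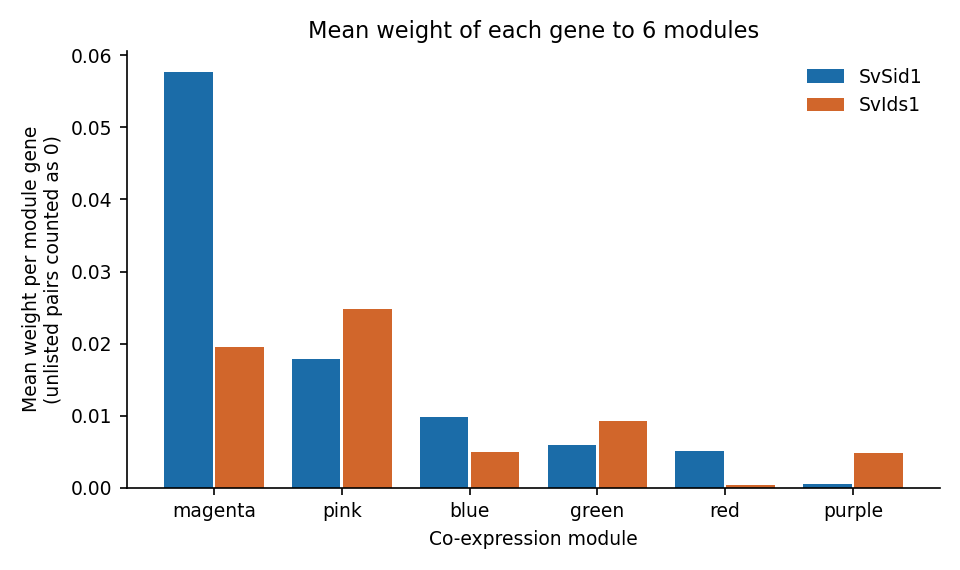
Mean weight (topological overlap, vertical axis) of *SvSid1* (blue bars) and *SvIds1* (orange bars) to all genes of 6 modules, with unlisted pairs counted as 0. The bar of *SvSid1* is highest for magenta at 0.0577, and that of *SvIds1* is highest for pink at 0.0248, above its own magenta bar of 0.0195.

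Without the 2 genes themselves, *SvSid1* had 3500 partners and *SvIds1* had 2433. The lists shared 1703 genes, which is 48.7% of the partners of *SvSid1* and 70.0% of those of *SvIds1*, against 6.73% of all network genes. A further 1797 genes were partners of *SvSid1* only and 730 of *SvIds1* only, called private partners below. The other 21066 genes had a listed edge to neither. The share of genes in common out of all partners of either (the Jaccard index) was 0.403.

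Many genes had a partner list closer to that of either gene. Among 25297 genes ordered by the Jaccard index with *SvSid1*, *SvIds1* ranked 1197, and 756 among the 1259 other magenta genes. Ordered by the index with *SvIds1*, *SvSid1* ranked 2268, and 561 within magenta. The list most like that of *SvSid1* was that of Sevir.8G108600, with an index of 0.865 and an annotated O-methyltransferase dimerisation domain. It was followed by Sevir.7G244500, a protein kinase gene, at 0.857, and by Sevir.5G154300, a peroxidase gene, at 0.849. All 3 were magenta genes with edges to *SvSid1* of 0.113, 0.150, and 0.0835.

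For *SvIds1*, the most alike lists were those of 3 other magenta genes, Sevir.8G005200 (a sugar transporter family gene by its domain) at 0.835, Sevir.7G148400 (an ABC transporter gene) at 0.821, and Sevir.5G440600 (a protein kinase gene) at 0.794. Only the first had a listed edge to *SvIds1* at all, of 0.0293. The other 2 shared most of its partners without a listed edge to it, while their edges to *SvSid1* weighed 0.0472 and 0.0488.

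*SvMads51*, the ortholog of a maize flowering time gene, had a list closer to that of *SvSid1* than to that of *SvIds1*. It had 3053 partners in common with *SvSid1* (index 0.682, rank 93 in magenta) and 1334 with *SvIds1* (0.260, rank 981). By the index, *SvFul4* was about as close to either, with 2948 in common with *SvSid1* (0.477, rank 511) and 2323 with *SvIds1* (0.405, rank 544). The shorter list of *SvIds1* lay more fully inside that of *SvFul4*, at 2323 of 2434 genes, against 2948 of 3501 for *SvSid1*. *SvFul2*, a brown gene with 1961 edges, had 24 partners in common with *SvSid1* and 2 with *SvIds1*.

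Within magenta, the list of *SvIds1* lay almost wholly inside that of *SvSid1*. Of its 554 magenta partners, 552 were also partners of *SvSid1*, or 99.6%, where 90.7% of all other magenta genes were partners of *SvSid1*. In the other direction, 48.4% of the 1141 magenta partners of *SvSid1* were partners of *SvIds1*, against 44.0% of all other magenta genes. The 2 exceptions were Sevir.2G339900, an SNF2-domain gene with a weight of 0.0278 to *SvIds1*, and Sevir.4G295200, a FYVE-domain gene with 0.0242. Both were weak edges. Outside magenta, *SvSid1* had 2359 partners and *SvIds1* had 1879, and the 1151 they shared were 48.8% of the list of *SvSid1* and 61.3% of that of *SvIds1*.

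The private partners fell into different modules. Of those of *SvSid1*, 589 were magenta genes (32.8%, against 4.97% of the network), 422 blue (23.5%, against 10.5%), 202 red (11.2%, against 6.68%), 161 black (8.96%, against 5.57%), and 88 darkred (4.90%, against 0.652%). Of those of *SvIds1*, 269 were green (36.8%, against 7.44% of the network), 236 pink (32.3%, against 5.19%), and 127 purple (17.4%, against 3.70%), and 2 were magenta. Red and black had no private partner of *SvIds1*. The shared partners were spread over magenta (552), pink (527), blue (318), and green (209). Neither gene had a single listed edge to turquoise or yellow, which together held 5910 genes, and to the 2411 brown genes, the module of *SvFul2*, *SvSid1* had 3 and *SvIds1* had none.

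**Figure D2:**
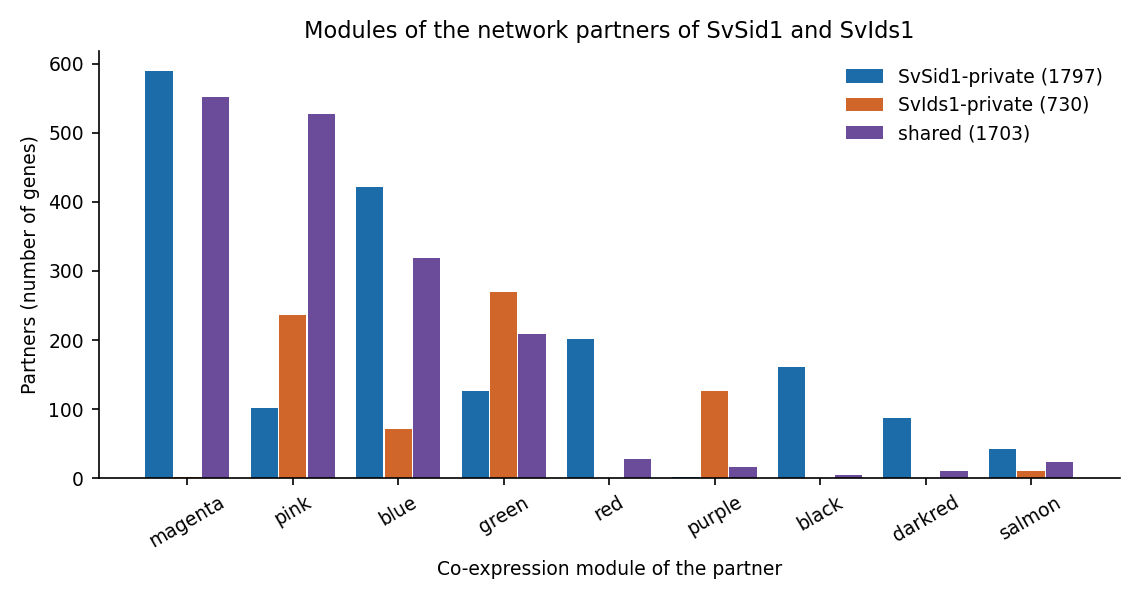
Number of partner genes (vertical axis) in each of 9 modules for the private partners of *SvSid1* (blue), the private partners of *SvIds1* (orange), and the shared partners (purple). The magenta bars stand at 589, 2, and 552 genes, while the purple module holds 127 private partners of *SvIds1* and few of the other lists.

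Most genes linked to both were linked more heavily to *SvSid1* if they were magenta or blue and more heavily to *SvIds1* if they were pink or green. Over the 552 shared magenta partners the median weight was 0.0830 to *SvSid1* and 0.0405 to *SvIds1*, and 538 of them were heavier to *SvSid1*. Over the 527 shared pink partners it was 0.0344 to *SvSid1* and 0.0477 to *SvIds1*, and 386 were heavier to *SvIds1*. The 209 green ones had medians of 0.0305 and 0.0433 in the same order, with 165 heavier to *SvIds1*. The 318 blue ones had medians of 0.0383 and 0.0322, with 210 heavier to *SvSid1*. All 28 shared red partners were heavier to *SvSid1* and all 16 purple ones to *SvIds1*. Across the 1703 shared partners, the weights to the 2 genes had a Pearson's r of 0.42 and a Spearman's rho of 0.31, and within magenta an r of 0.72 and a rho of 0.69. These points share both genes and all samples, so the coefficients only describe the cloud.

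**Figure D3:**
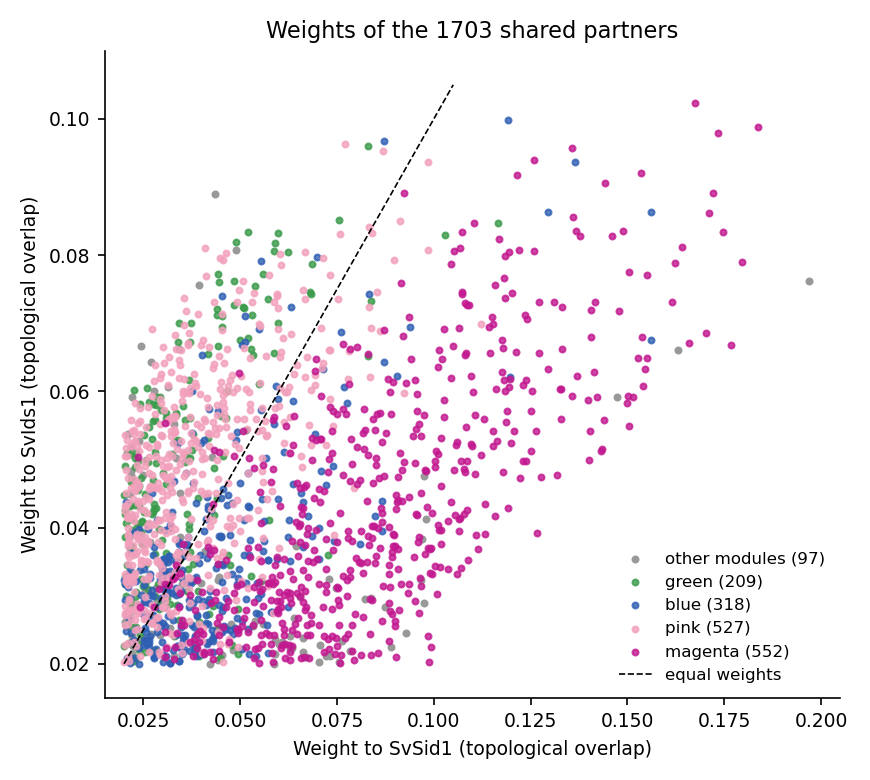
Weight to *SvSid1* (horizontal axis) and to *SvIds1* (vertical axis), both as topological overlap on different ranges, for the 1703 shared partners, coloured by module. Magenta genes lie mostly to the right of the dashed line of equal weights, 538 of 552, and pink genes mostly to its left, 386 of 527.

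The number of edges of a partner moved with these lists. Shared partners had a median of 5673 edges and private partners of *SvIds1* 5639, against 2278 for private partners of *SvSid1* and 2943 for genes that were partners of neither. Among themselves, 92.2% of all pairs of shared partners were listed, 25.9% of pairs of private partners of *SvSid1*, and 93.0% of pairs of private partners of *SvIds1*, against 13.6% of all pairs in the network. Genes of a list have a partner in common by definition, and topological overlap counts common partners. These shares of listed pairs thus depend in part on how the lists were picked. Across partners, the weight to *SvSid1* and the partner's number of edges had an r of 0.21 (3500 genes), and the weight to *SvIds1* had an r of 0.45 (2433 genes). *SvIds1* was thus linked mainly to genes with many edges, and its 100 heaviest partners had a median of 6630 edges, whereas those of *SvSid1* had 5361. The part of this in the overlap was not tested.

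Of the 8 heaviest partners of *SvSid1*, 2 were basic helix-loop-helix (bHLH) genes and 6 had domains or best matches of enzymes. The first was Sevir.6G240200, a bHLH gene labelled midnightblue, with a weight of 0.197 to *SvSid1* and 0.0762 to *SvIds1*. The second was Sevir.8G226000, with a domain of wax ester synthases, at 0.184 and 0.0988. Sevir.4G248900 followed at 0.179 and 0.0789, and Sevir.2G194900 at 0.175 and 0.0834. Both have domains of multicopper oxidases, a family of copper enzymes that includes the laccases of lignin formation and ascorbate oxidase. Between them stood a second bHLH gene, Sevir.6G239900, at 0.177 and 0.0668. Its locus number is close to that of the first, and Sevir.6G240000, in the same run of numbers, was another bHLH partner at 0.119 and 0.0607.

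The remaining heavy partners of *SvSid1* were Sevir.1G122600, best matched by the *Arabidopsis* tocopherol cyclase gene of vitamin E synthesis, at 0.173 and 0.0980, and the multicopper oxidase genes Sevir.8G222400, at 0.172 and 0.0891, and Sevir.8G219900, at 0.171 and 0.0862. All of the 100 heaviest partners of *SvSid1* had a listed edge to *SvIds1*, and 91 of them were magenta.

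For *SvIds1*, the heaviest partner was Sevir.9G138232, a TALE homeobox gene, the class that holds *knotted1*. It weighed 0.102 to *SvIds1* and was also heavy to *SvSid1*, at 0.168 and rank 10. Sevir.7G176000, a blue gene annotated to DNA binding, weighed 0.119 to *SvSid1* and 0.0998 to *SvIds1*. Sevir.8G226000 and Sevir.1G122600, both described above, came next. The following ones were outside magenta: Sevir.1G098300 (blue) at 0.0872 to *SvSid1* and 0.0968 to *SvIds1*, Sevir.3G007800 (pink, a protein kinase gene) at 0.0772 and 0.0963, and Sevir.1G145625 (green, with a domain of cytochrome c assembly proteins) at 0.0829 and 0.0960. The eighth, Sevir.7G038105, was a magenta gene best matched by a receptor-like kinase, at 0.136 and 0.0958.

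Sevir.1G098300, Sevir.3G007800, and Sevir.1G145625 weighed more to *SvIds1*, and the other 5 of these 8 genes more to *SvSid1*. Of the 100 heaviest partners of *SvIds1*, 39 were magenta, 29 pink, 19 green, and 9 blue, and all 100 had a listed edge to *SvSid1*. By the lower of the 2 weights, the 8 leading shared partners were 5 genes already named, which are Sevir.9G138232, Sevir.7G176000, Sevir.8G226000, Sevir.1G122600, and Sevir.7G038105, and then Sevir.5G105700 (magenta, 0.126 and 0.0940), Sevir.4G164300 (pink, 0.0984 and 0.0937), and Sevir.9G333700 (blue, 0.136 and 0.0936).

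Private partners had lighter edges. A partner is private where its weight to the other gene was below the cut, and weights to the 2 genes moved together among shared partners. The lighter edges are therefore not independent of how the lists were made. The heaviest private partner of *SvSid1* was Sevir.2G225600, with a 2-oxoglutarate and iron dependent oxygenase domain, at 0.0936. It was followed by the flavin monooxygenase gene Sevir.2G007600 at 0.0918, Sevir.9G000100 at 0.0843, the protein kinase gene Sevir.3G101200 at 0.0836, and Sevir.9G279400, with a transporter domain, at 0.0824. All 5 were magenta and had between 2093 and 2820 edges. The heaviest private partner of *SvIds1* was Sevir.3G117900, a purple gene best matched by *Arabidopsis VIM1*, which binds methylated DNA, at 0.0566. The others were Sevir.6G206100 (pink) at 0.0531, Sevir.4G029800 (purple) at 0.0529, Sevir.5G457500 (purple) at 0.0527, and Sevir.1G043500 (green) at 0.0522, and the 5 had between 5341 and 7004 edges. Sevir.5G457500 is best matched by *BOP2*, an *Arabidopsis* gene that sets boundaries of lateral organs.

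Of 24 genes that the study names by identifier, all regulators but the enzyme gene Sevir.3G253900 (pyruvate orthophosphate dikinase), 9 had a listed edge to *SvSid1*, against 13.8% of all genes, and 6 to *SvIds1*, against 9.62%. All 6 were common to both, against 6.73% of all genes. Of the 24, 15, the enzyme gene among them, had an edge to neither, as did 21066 of the 25296 genes other than *SvSid1* and *SvIds1*. The study named some of the 24, such as *SvMads51* and Sevir.2G248500, from its own network analysis of these data. The list is therefore not independent of the edges. The heaviest to *SvSid1* was *SvMads51*, at 0.143 and rank 36 of its edges, while the same gene weighed 0.0516 to *SvIds1* at rank 535. The bHLH gene Sevir.2G248500 weighed 0.115 to *SvSid1* (rank 111) and 0.0709 to *SvIds1* (rank 133). *SvYab15*, a YABBY gene of abaxial identity, weighed 0.108 (rank 137) and 0.0729 (rank 111), and *SvFul4* 0.103 (rank 163) and 0.0691 (rank 149). In rank, these 3 regulators stood about alike in both lists, and *SvMads51* stood far higher in that of *SvSid1*. All of them, *SvMads51* included, were magenta genes. Of all other magenta genes, 90.7% were partners of *SvSid1* and 44.0% of *SvIds1*.

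One regulator leaned the other way. *SvZcn2*, a pink gene of the TFL1-like family, whose members delay flowering and keep inflorescence meristems indeterminate in other plants, weighed 0.0456 to *SvSid1*, above 66.0% of its edges. It weighed 0.0793 to *SvIds1*, above 97.5% of its edges and at rank 60, the best rank of any of the 24 genes for *SvIds1*. This lean was common in its module, as 386 of the 527 shared pink partners were heavier to *SvIds1*. Of all pink genes, 47.9% were partners of *SvSid1* and 58.1% of *SvIds1*. *SvZcn2* also had 6533 edges, and the weight to *SvIds1* rose with a partner's number of edges (r of 0.45). *SvFd1*, a bZIP partner of florigen by homology, was near the lowest listed weight for both, at 0.0268 to *SvSid1* and 0.0240 to *SvIds1*. Listed for *SvSid1* only were the HD-ZIP IV ortholog of *ROC5* at 0.0432, the KANADI gene *SvMwp1* at 0.0327, and the strigolactone signalling gene *SvD3* at 0.0277. Among the 15 with no listed edge to either were *SvFul1*, *SvFul2*, *SvFul3*, *SvMads34*, *SvMads5*, the florigen gene *SvFtl1*, *SvMtf1*, *SvRa2*, and *SvKn1*. All of these genes were in cyan, turquoise, brown, or tan, where hardly any gene was a partner. Cyan and turquoise had 0 partners of either gene, and brown had 3 of *SvSid1* and 0 of *SvIds1*. Of the 798 tan genes, 4 were partners of *SvSid1* and 6 of *SvIds1*.

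**Figure D4:**
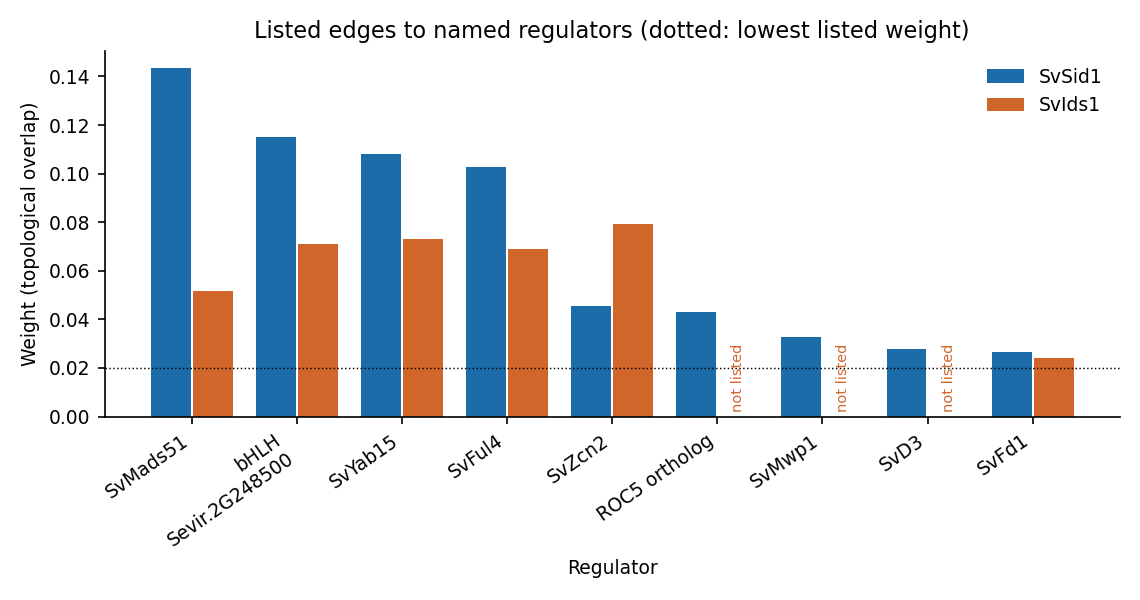
Weight (topological overlap, vertical axis) of the listed edges from 9 named regulators to *SvSid1* (blue) and *SvIds1* (orange); the dotted line is the lowest listed weight. *SvMads51* has the tallest bar for *SvSid1*, at 0.143, *SvZcn2* has the tallest for *SvIds1*, at 0.0793, and 3 regulators have no listed edge to *SvIds1*.

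The AP2-like relatives were looked up by the *Arabidopsis* locus that the annotation cites as best match. *AP2* was cited by 1 gene, Sevir.7G274400, and *TOE1* by *SvIds1* itself, while *TOE2*, *TOE3*, *SMZ*, and *SNZ* were cited by 0 network genes, so this search finds only part of the family. Sevir.7G274400 was also magenta, with 3286 edges. It weighed 0.0656 to *SvSid1*, above 84.3% of the edges of *SvSid1* and more than the edge between *SvSid1* and *SvIds1*, and had no listed edge to *SvIds1*. It had 1959 partners in common with *SvSid1* (index 0.406) and 690 with *SvIds1* (index 0.137).

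Other protein families were counted by domain after the heaviest partners had been seen, so the choice of families is not independent of the values, and the annotation gives only 1 source for a term, so domain lists are incomplete. Of 85 network genes with an AP2/ERF domain, 18 were partners of *SvSid1* (21.2%, against 13.8% of all genes) and 6 of *SvIds1* (7.06%, against 9.62%), all 6 shared. Of 93 bHLH genes, 24 were partners of *SvSid1* (25.8%) and 15 of *SvIds1* (16.1%), and 12 were shared. Of 37 MADS-box genes, 7 were partners of *SvSid1* (18.9%) and 6 of *SvIds1* (16.2%), all 6 shared. They included Sevir.1G003401 (magenta, 0.110 to *SvSid1* and 0.0519 to *SvIds1*), Sevir.9G518400 (magenta, 0.109 and 0.0727), Sevir.1G335300 (green, best matched by the flowering repressor *SVP*, 0.0838 and 0.0733), and Sevir.4G075400 (blue, 0.0454 and 0.0740). The last was the heaviest MADS-box partner of *SvIds1*. Within magenta, 9 of 11 AP2/ERF genes, 9 of 9 bHLH genes, and 5 of 5 MADS-box genes were partners of *SvSid1*. The share of all other magenta genes was 90.7%. Partners of *SvIds1* were 3, 5, and 4 of these magenta genes in the same order, against 44.0% of all other magenta genes.

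Of 44 network genes with a multicopper oxidase domain, 23 were partners of *SvSid1* (52.3%, against 13.8% of all genes) and 13 of *SvIds1* (29.5%, against 9.62%), and 12 were shared. Module membership moved with this count. Of the 44, 22 were magenta, where 21 were partners of *SvSid1*, against 90.7% of all other magenta genes, and 11 of *SvIds1*, against 44.0%, so within the module the family was near the module's share. A run of 18 of these genes, Sevir.8G219900 to Sevir.8G224900, carried neighbouring locus numbers on chromosome 8. Of the 18, 12 were magenta, 13 were partners of *SvSid1* with weights between 0.0299 and 0.172, and 8 were partners of *SvIds1*. Similar copies can share reads, and only primary transcripts were quantified, so the values of single genes in this run, and of the neighbouring bHLH genes, are uncertain.

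The annotation, which the study made with the GOMAP pipeline, gave *SvSid1* 17 GO terms and *SvIds1* 19, with 14 in common. The common terms included “meristem determinacy”, “maintenance of inflorescence meristem identity”, “stem cell development”, and “specification of organ identity”. “Regulation of timing of meristematic phase transition” was carried by these 2 genes and no other gene of the network. “Meristem determinacy” was carried by 1 further gene, the MADS-box gene Sevir.7G221900, a turquoise gene with no listed edge to either. *SvIds1* alone carried “response to salt stress” and “response to abscisic acid”, both cited from *TOE1*, and “RNA binding”, “RNA modification”, and “endonuclease activity”, all 3 cited from 1 other best match. These 3 terms were thus not given by its AP2 domain or by *TOE1*, and whether they hold for *SvIds1* was not checked.

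A list of 31 terms of flowering, meristems, hormones, and basic cell functions was counted among the partners. Of these, 6 were over 2 times as frequent among shared partners as in the network, 3 were at under 1/2 of the network share, and 0 were over 2 times as frequent in either private list. The 6 were “floral meristem determinacy”, “inflorescence development”, “adaxial/abaxial pattern specification”, “translation”, “structural constituent of ribosome”, and “photosynthesis”, and the 3 were “nucleosome”, “meristem determinacy”, and “stem cell population maintenance”. Besides *SvSid1* and *SvIds1*, “meristem determinacy” had 1 carrier in the network, and “stem cell population maintenance” had 16. These are too few for a low share to be read. “Photosynthesis” was at 0.998% of shared partners, 0.890% of private partners of *SvSid1*, and 0.274% of those of *SvIds1*, against 0.482% of the network. No test of enrichment was run. The term “floral meristem determinacy” was carried by 8 shared partners (0.470%), 1 private partner of *SvSid1*, and 1 of *SvIds1*, against 30 network genes (0.119%). The shared ones included *SvFul4* and the MADS-box genes Sevir.9G518400, Sevir.1G335300, and Sevir.4G075400 named above. The rest, Sevir.1G335400, Sevir.3G035200, Sevir.5G249600, and Sevir.9G205200, had no MADS-box record, and the share rests on few genes. The private one of *SvSid1* was Sevir.6G011600, a MADS-box gene best matched by *AGL12*, at 0.0291, and that of *SvIds1* was Sevir.5G457500, the match of *BOP2*.

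“Maintenance of inflorescence meristem identity”, a term of both genes that was not in the list of 31, was carried by 5 shared partners (0.294%), 1 private partner of *SvSid1*, and 1 of *SvIds1*, against 0.0949% of the network, and all 5 shared ones were MADS-box genes already named.

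“Inflorescence development” was carried by 8 shared partners (0.470%), 3 private partners of *SvSid1*, and 0 of *SvIds1*, against 0.225% of the network. Among the shared ones were *SvZcn2*, Sevir.9G535800 (a flavin monooxygenase gene, 0.133 to *SvSid1* and 0.0662 to *SvIds1*), Sevir.8G033800 (a gene of the family of *SvZcn2*, 0.0765 and 0.0477), and Sevir.5G426500 (best matched by *TEL1*, an RNA-binding gene of the *terminal ear1* family, 0.0597 and 0.0588). Also among them were the ribosomal protein genes Sevir.1G072200 (0.0307 and 0.0223) and Sevir.2G398000 (0.0422 and 0.0218). “Adaxial/abaxial pattern specification” was carried by 4 shared partners (0.235%, against 0.0751%), and all 4 were ribosomal protein genes. These were Sevir.4G005200 (0.0556 and 0.0544), Sevir.5G418800 (0.0201 and 0.0262), Sevir.6G249500 (0.0597 and 0.0833), and Sevir.9G187100 (0.0728 and 0.0324).

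“Structural constituent of ribosome” was carried by 125 shared partners (7.34%), 50 private partners of *SvSid1* (2.78%), and 19 of *SvIds1* (2.60%), against 493 network genes (1.95%). “Translation” was at 6.69%, 3.45%, and 3.01% of the same lists in this order, against 3.03%. Of the 125, 87 were also annotated to a cytosolic ribosomal subunit, 59 to the chloroplast, and 5 to the mitochondrion, and a gene can carry more than 1 of these. Their weights to *SvSid1* lay between 0.0201 and 0.170 with a median of 0.0422, those to *SvIds1* between 0.0200 and 0.0852 with a median of 0.0489, and 76 of them were heavier to *SvIds1*. With only edges of at least 0.04 counted, the term was at 8.11% of shared partners, 3.94% of private partners of *SvSid1*, and 8.45% of those of *SvIds1*, so the gap to the private partners of *SvIds1* was no longer there.

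The module of the partners moved with this share, which was split by module after it had been seen. In pink, 11.6% of shared partners carried the ribosome term, against 7.16% of all pink genes. In green it was 9.09% against 1.97%, in blue 4.72% against 1.57%, and in magenta 3.99% against 3.90%. In magenta, the shared partners were thus at the share of the module. Outside pink, 5.44% of shared partners carried the term, against 1.66% of all genes outside pink.

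The 3 terms that *SvIds1* carries from 1 best match, which were not in the list of 31, were also counted among the partners, with no test of the differences. As the terms of *SvIds1* itself were not checked, these counts do not show a function that it has in common with its partners. “RNA modification” was at 5.48% of private partners of *SvIds1*, against 2.23% of shared partners, 0.890% of private partners of *SvSid1*, and 1.62% of the network. “Endonuclease activity” was at 8.36%, against 2.41%, 1.67%, and 2.34% of the same lists, and “RNA binding” at 11.5%, against 7.99%, 4.34%, and 4.59%. In pink, “RNA modification” was at 9.32% of private partners of *SvIds1*, against 4.80% of all pink genes, and outside pink at 3.64%, against 1.44% of all genes there. “Endonuclease activity” was at 14.0% against 6.55% in pink, and at 5.67% against 2.11% outside it. With only edges of at least 0.04 counted, both terms were at 4.36% of private partners of *SvIds1* and 1.41% of shared partners. Among private partners of *SvSid1* they were then at 1.06% and 1.28%.

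“DNA-binding transcription factor activity” was at 3.62% of private partners of *SvSid1*, 2.60% of those of *SvIds1*, and 3.11% of shared partners, against 3.73%. The 4 terms of hormone signalling were above the network share in private partners of *SvSid1* and below it in the other lists. “Auxin-activated signaling pathway” was at 1.28%, 0.411%, and 0.646% of the same lists, against 1.04%. The cytokinin term was at 0.445%, 0.137%, and 0.176%, against 0.332%, and the ethylene term at 1.00%, 0.137%, and 0.528%, against 0.787%. The gibberellic acid term was at 0.612%, 0%, and 0.352%, against 0.439%. These shares rest on few genes, between 8 and 23 private partners of *SvSid1* for each term, and no test was run. “Nucleosome” was carried by 3, 1, and 1 genes, against 98 in the network (0.387%), and “stem cell population maintenance” by 0 partners of either gene, against 16 in the network (0.0633%).

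**Figure D5:**
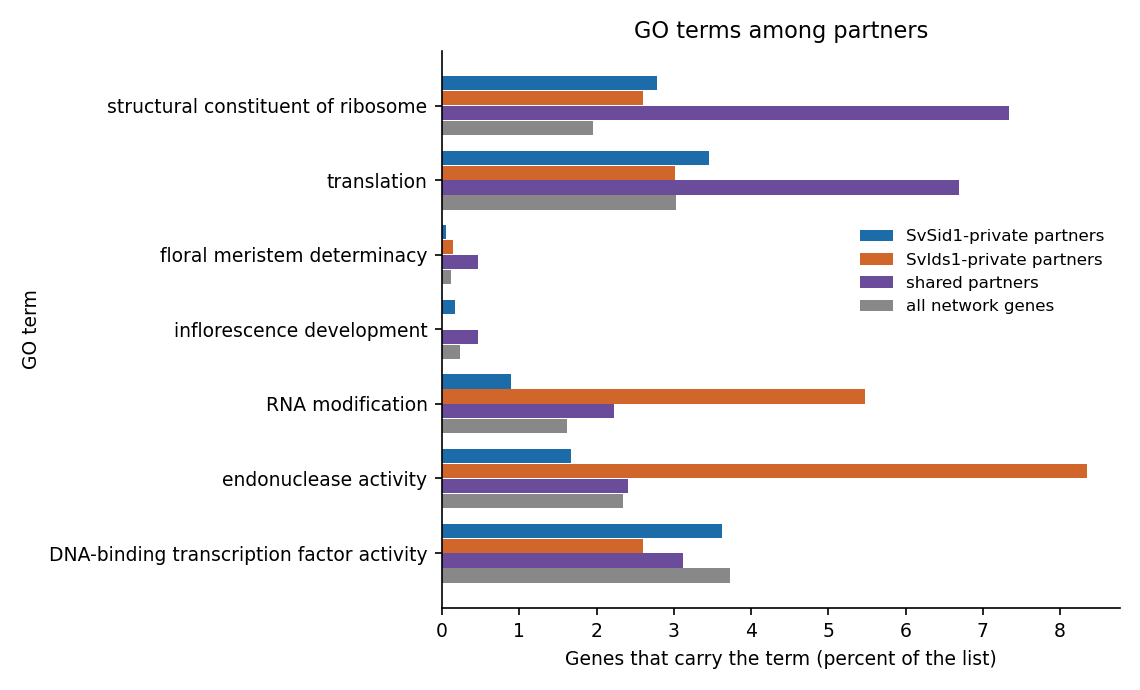
Share of genes (percent, horizontal axis) that carry each of 7 GO terms among private partners of *SvSid1* (blue), private partners of *SvIds1* (orange), shared partners (purple), and all network genes (grey). The ribosome term reaches 7.34% in shared partners against 1.95% of the network, and endonuclease activity 8.36% in private partners of *SvIds1* against 2.34%. All listed edges are counted. With only edges of at least 0.04, endonuclease activity was at 4.36% of private partners of *SvIds1*.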

How the data were processed

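The series holds 24 RNA-seq samples and 2 DNA samples. Its 3 deposited tables used here (an edge list, a node list with modules, and a GO annotation) have 0 columns of single samples. The edge weight is a score, the topological overlap that the authors deposited for each gene pair. According to the study's methods, reads were trimmed with Trim Galore and quantified with Salmon 0.13.0 on primary transcripts of the version 2.1 transcriptome. Counts were imported with tximport, genes with few counts and 2 samples were removed, and a variance stabilizing transformation was applied. A signed network was then built with WGCNA from biweight midcorrelations, so that weights reflect shared change over the wild-type samples, not levels. By the study's methods, most of these samples came from the earlier study, at other days after sowing than those of this series. The wild-type label of 10 to 11 days includes a day of the earlier study, but the other days differ between the studies. A difference between stages and one between studies can therefore not be fully told apart in a weight. The GO annotation was made with GOMAP, and 678 records marked NOT were left out.

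Nodes were matched by locus. Edges, summed weights, partner lists, Jaccard indices, and GO shares were computed in Python 3.11.15 with numpy 2.4.6, pandas 2.3.3, and scipy 1.17.1, and drawn with matplotlib 3.10.9. The functions were tested on simulated data. Alternatives were higher weight minimums, lists of equal length, single modules, other measures of connectivity and overlap, and other handling of GO records. Named genes were both members, the regulators with a listed edge, the 8 heaviest partners of each gene, the 8 shared partners of highest lower weight, AP2-like relatives by annotation, and the 5 heaviest private partners of each gene. Genes named under a GO term, a domain family, or as most alike, regulators with no listed edge, and the 2 private magenta partners of *SvIds1* were added after their values were seen. The members and lists were chosen with earlier results of these data known. The RefSeq gene table used here is of another assembly and matched 0 of the locus identifiers, so no sequence or coordinate is given.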

Additional observations from a re-analysis of the deposited data

How the results depend on the processing

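Of 53 alternatives tried over 15 results, 17 stayed within the limits set and 36 moved. The limit was 1.5 times for a count or a rank. For a share it was the 95% Wilson interval, a range around the main value that depends on the number of genes. That interval takes genes as independent, which partners are not, so it served only to sort the results. With edges of at least 0.03, *SvSid1* had 2272 partners and *SvIds1* 1523, with 983 shared (43.3% and 64.5%). With edges of at least 0.04, they had 1506 and 934, with 567 shared (37.6% and 60.7%). This follows from dropping edges. With the 500 heaviest edges of each, 220 were shared (44.0% of each list, equal by construction). In magenta alone, 552 were shared (99.6% of *SvIds1*), and outside it the share was 61.3%. *SvSid1* ranked 140 in magenta by summed magenta weight and 144 by number of magenta edges, but 458 by summed weight over all modules, 444 by edges of at least 0.04, and 488 by number of all edges, whereas the rank of *SvIds1* stayed within 1.5 times. By overlap with *SvSid1*, *SvIds1* ranked 2985 by number of shared partners, 2098 over the smaller list, and 778 with edges of at least 0.04. By overlap with *SvIds1*, *SvSid1* ranked 3436, 4010, and 1453 in the same order. The share of magenta was 49.2% of shared and 59.6% of *SvSid1*-private partners with edges of at least 0.04. With the 500 heaviest edges it was 73.2% and 85.7%, and 2.50% of *SvIds1*-private partners. “Floral meristem determinacy” was at 1.06% of shared partners with edges of at least 0.04. Splits by module, chosen after seeing the data, put the ribosome term at 11.6% of shared partners in pink, 3.99% in magenta, and 5.44% outside pink, and “RNA modification” at 9.32% of *SvIds1*-private partners in pink and 3.64% outside it. Apart from the dropped edges and the unequal lists, the cause was not tested.

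No paired analysis was possible because single samples have no column of their own here, and no replicate was left out for the same reason. A list is cut at the lowest listed weight, and the weight of an unlisted pair is not known. Weights have no replicate error, and their precision cannot be given.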
